A study of Mus musculus with 6 samples.

Results

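The collagen genes were followed through mesoderm explants of the gastrulating mouse embryo. They were taken as every gene whose symbol had the form Col, number, a, number, and 44 of the 46078 genes in the deposited count tables met that rule. In the list used here, 11 of the 44 encoded fibrillar collagens and 6 encoded the type IV collagens of basement membranes. Of the 44 genes, 36 had enough counts to be tested, among them 9 of the 11 fibrillar and 6 of the 6 type IV genes. The other 8 were Col5a3, Col6a5, Col6a6, Col10a1, Col11a2, Col17a1, Col20a1 and Col28a1, none of them above 0.525 CPM in any library, with Col6a5 at 0 counts in every one. CPM is the count of a gene per 1000000 counts of its library, after scaling the libraries to each other.

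Polyadenylated RNA came from E7.25 mesoderm explants that were labelled wild type, while the series text names mice carrying the TCF/Lef:H2B-GFP reporter of canonical Wnt signalling. The explants sat on fibronectin in medium with rat serum. Their culture lasted 27 h by the growth protocol and 24 h by the series text, with 3 to 4 h given for attachment. The 6 libraries made up 3 groups of 2: control, 1 µM PD for 16 h, and 10 µM YZ9 for 16 h. The labels give only the name PD, YZ9 is known as an inhibitor of the glycolytic regulator PFKFB3, and whether the controls received a vehicle is not given. The labels also do not say whether replicates were separate embryos or cultures, so the p-values below measure the spread between these libraries only.

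Collagens are secreted proteins whose chains wind into a helix with glycine in each repeat unit. Fibrillar collagens carry an almost unbroken helix and assemble into the rope-like fibrils of connective tissue, with types I and III making up most of a fibril and types V and XI helping to start it. Type IV collagens have a helix broken by many short interruptions, cannot form fibrils, and build the flexible net of basement membranes, the sheets on which epithelia rest and which mesoderm cells leave behind when they pass through the primitive streak. Other classes form beaded filaments (type VI), hexagonal nets (types VIII and X), coats on fibrils (the fibril-associated collagens), or sit in cell membranes.

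The difference between the classes can be read from the genes. Below are 27 codons of the coding sequence of Col3a1, a fibrillar chain, from codon 680, and 27 codons of Col4a1, a type IV chain, from codon 212, both from the GENCODE M21 transcripts on GRCm38. They are shown because they hold the feature by which the classes compared here are told apart, and the capitals mark each codon of the form GGN, which encodes glycine.
Col3a1: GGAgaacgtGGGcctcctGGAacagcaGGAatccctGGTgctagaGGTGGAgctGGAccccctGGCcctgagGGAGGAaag
Col4a1: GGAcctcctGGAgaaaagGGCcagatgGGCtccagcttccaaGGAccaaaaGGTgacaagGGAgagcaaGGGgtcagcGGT
In Col3a1 the glycine codons keep their spacing throughout the stretch, with some extra ones between. In Col4a1 the spacing is broken once, in the run of lower case after the fourth capital codon, and then resumes. Counted over whole coding sequences, the longest run of GGN codons at regular spacing held 337 to 344 units in 9 of the 11 fibrillar genes, and 216 and 217 units in Col24a1 and Col27a1. In the 6 type IV genes the longest run held only 39 to 66 units, and the helix was split into 22 to 27 runs of at least 6 units, against 2 or 3 runs in each fibrillar gene.

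The libraries held 21253194 to 27810161 counts over 20112 to 20933 genes, and collagens took 0.0848% to 0.266% of them. Counts of Xist and of Y-linked genes marked both controls, PD replicate 1 and YZ9 replicate 1 as male and PD replicate 2 and YZ9 replicate 2 as female, so the PD pair and the YZ9 pair each held different embryos. The labelled mesoderm was checked against 23 markers, whose summed level was 677 to 1515 CPM. Hand1, Bmp4, Tbx20 and Kdr were present in every library at 45.0 CPM or more, while T, Tbx6 and Mesp1, which mark nascent mesoderm, were at or below 0.322 CPM, and Eomes was at 0 in both PD libraries. Markers of other cells were present and uneven. The summed level of 9 blood markers was 2687 and 7885 CPM in controls, 526 and 7149 CPM with PD, and 92.5 and 1304 CPM with YZ9. The summed level of 10 ectoderm and epithelial markers was 5318 and 4695 CPM in controls, 10900 and 6972 CPM with PD, and 6638 and 5368 CPM with YZ9. Most of it was Krt8 and Krt18, each at 2073 CPM or more in every library. Sox2, Sox3, Pou3f1 and Utf1 were at or below 4.03 CPM, so the sum does not show that ectoderm was present. Cdh1, the E-cadherin gene, stood at 1.84 and 3.80 CPM in controls against 79.8 and 21.6 CPM with PD and 112.6 and 30.7 CPM with YZ9. Otx2 went the other way, at 11.3 and 8.21 CPM in controls against 2.38 and 6.76 CPM with PD. Both PD libraries lay above both controls in 7 of the 10 (19.2% of all genes tested) and below in 1 (19.5%). With YZ9 these were 6 (21.1%) and 1 (24.5%). The summed level of 18 markers of parietal and visceral endoderm, a source of basement membrane, was 1019 and 1078 CPM in controls, 661 and 403 CPM with PD and 614 and 376 CPM with YZ9, lower in every inhibitor library. Thbd alone was at 411 and 609 CPM in controls, 228.5 and 46.1 CPM with PD and 77.6 and 22.0 CPM with YZ9, whereas Afp was at 34.3 and 5.76 CPM with PD against 0.899 and 0.565 CPM in controls, and Hnf4a had no count in any library. Of the 15 tested endoderm markers, both PD libraries lay below both controls in 4 (19.5% of all genes tested) and above in 6 (19.2%). With YZ9 these were 4 (24.5% of all genes tested) and 3 (21.1%). Markers summed to 241 to 468 CPM for endothelium, 126 to 604 CPM for trophoblast and allantois and 8.63 to 28.7 CPM for notochord over the 6 libraries. The trophoblast and allantois sum was almost all Hand1, which is also on the mesoderm list. Every other marker on that list was at or below 0.644 CPM, so the sum does not show that trophoblast was present. The part of these cells in the results below was not tested, and in bulk RNA fewer cells of a type and less RNA per cell cannot be told apart.

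In control explants the collagen message was mainly fibrillar. Per kilobase of transcript, which allows genes of different length to be compared, Col1a1 had the highest level of the 44 genes (145.9 and 95.7 CPM per kb), followed by its partner chain Col1a2 (52.0 and 52.5) and by Col3a1 (52.9 and 46.3). Col1a2 and Col3a1 did not differ in order beyond the spread of their libraries. Next came Col4a1 with a mean of 30.6 CPM per kb, Col5a2 with 28.9, Col5a1 with 21.8 and Col4a2 with 17.7. Col4a1 and Col5a2 lay closer together than the SD of either between controls, 6.41 and 5.32 CPM per kb. The fibrillar genes held 74.8% of collagen CPM per kb in each control library, and the type IV genes 14.6% and 13.8%.

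With YZ9 the order of the genes was different. Col1a1 stayed first, at a mean of 53.0 CPM per kb, but its 2 libraries differed widely. The next ranks were held by Col4a1 (26.5) and Col4a2 (19.6), ahead of Col5a2 (18.4), Col18a1 (15.6) and Col5a1 (12.7), while Col1a2 (11.1) and Col3a1 (7.47) followed. Neighbours from Col4a1 to Col5a1 did not differ beyond the spread of their libraries, which had an SD of 14.1 CPM per kb for Col4a1. With PD the first 3 genes were Col1a1, Col3a1 and Col1a2, as in controls apart from the exchange of the last pair.

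**Figure D1:**
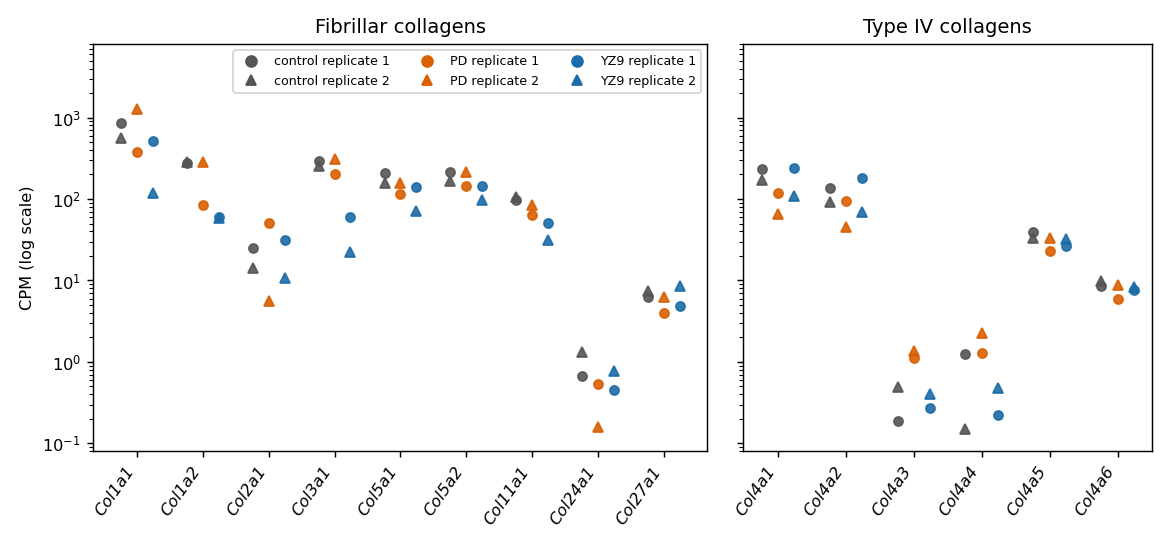
Level of each tested fibrillar and type IV collagen gene in each of the 6 libraries, in CPM on a log axis, with circles for replicate 1 and triangles for replicate 2. Both YZ9 libraries of Col1a2 (60.0 and 59.0 CPM) and Col3a1 (60.6 and 22.5 CPM) lie below all control and PD libraries, while the YZ9 libraries of Col4a1 and Col4a2 lie on both sides of the controls.

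YZ9 was compared with control to see how this inhibitor altered the explants, in a series on glucose metabolism during gastrulation. The collagens with the lowest p-values were Col3a1, Col8a1, Col11a1 and Col1a2, which all lay lower with YZ9, and none of the 36 passed the main test. That test was edgeR's quasi-likelihood test over all 6 libraries with Benjamini-Hochberg adjustment over 15568 genes, and a gene passed at an adjusted p under 0.05. It called 0.00642% of all genes tested in this comparison, a single gene. At an unadjusted p under 0.05, 7 collagens lay lower (6.93% of all genes did) and 0 lay higher (4.34% of all genes). DESeq2, a count test that gave many more calls, called 4 collagens lower (2.35% of all genes) and 0 higher (0.983%), and limma-trend called 0. The authors' deposited table called 7 collagens lower (2.66% of its genes with an adjusted p) and 0 higher (1.18%).

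Col3a1 encodes the chain of type III collagen, a fibrillar collagen of soft tissues (chr1:45311538-45349706, plus strand, GRCm38). It stood at 294 and 258 CPM in controls, 203 and 306 CPM with PD, and 60.6 and 22.5 CPM with YZ9. The YZ9 libraries were both below the other 4, and control and PD libraries overlapped. Against control, the edgeR fold was 6.65 lower with YZ9 (log2 fold change -2.73, SE 0.47, edgeR adjusted p = 0.172), DESeq2 gave an adjusted p of 5.65e-07, and the authors' deposited table gave a log2 fold change of -2.71 with an adjusted p of 1.77e-09. The log2 fold change from edgeR was -3.60 without YZ9 replicate 1 and -2.17 without YZ9 replicate 2, and the adjusted p lay between 0.0906 and 0.804 as each of the 6 libraries was left out.

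Col1a2 encodes the second chain of type I collagen, the main protein of most fibrils (chr6:4504814-4541544, plus strand, GRCm38). Its level was 278 and 281 CPM in controls, 83.3 and 281 CPM with PD, and 60.0 and 59.0 CPM with YZ9. The 2 YZ9 libraries nearly coincided and lay below all others, and the PD libraries were split, with replicate 2 at the control level. The YZ9 difference was 4.70-fold (log2 fold change -2.23, SE 0.51, edgeR adjusted p = 0.228). It passed in edgeR with only the 4 libraries of the comparison (adjusted p = 0.0171) and with no filter on low counts (2.04e-05), in DESeq2 (0.000489), and in the authors' deposited table (3.23e-19). It did not pass in limma-trend (adjusted p = 0.174), nor in edgeR with the replicate block (0.205) or with sex as a covariate (0.0538). The edgeR log2 fold change lay between -2.24 and -2.20 as each library was left out. Its partner Col1a1 did not follow closely, at 865 and 567.5 CPM in controls, 374 and 1283 CPM with PD and 508 and 119.7 CPM with YZ9. Both YZ9 libraries of Col1a1 were below both controls, and the edgeR log2 fold change of -1.19 had an SE of 0.77 (adjusted p = 0.597).

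Col11a1, a minor chain that takes part in starting fibrils (chr3:114030540-114220718, plus strand, GRCm38), was at 97.9 and 105.7 CPM in controls, 63.0 and 84.6 CPM with PD, and 50.8 and 31.2 CPM with YZ9. The 3 groups did not overlap, with controls highest and YZ9 lowest. The difference from control was -1.31 on the log2 scale with YZ9 (SE 0.27, edgeR adjusted p = 0.214, DESeq2 adjusted p = 0.00255). The type V chains, which co-assemble with type I, differed less. Col5a1 was at 208 and 157.9 CPM in controls against 142 and 71.4 CPM with YZ9 (log2 fold change -0.78, edgeR adjusted p = 0.461), and Col5a2 at 216 and 166 against 146 and 97.3 CPM (log2 fold change -0.65, edgeR adjusted p = 0.45). For both, YZ9 libraries were below both controls, but by less than the gap seen for Col3a1.

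The remaining fibrillar genes overlapped between YZ9 and control. Col2a1, the cartilage collagen, ranged over 25.2 and 14.1 CPM in controls, 50.4 and 5.56 CPM with PD, and 31.6 and 10.8 CPM with YZ9, so replicates of an inhibitor differed more than groups did. Col27a1 stood between 3.96 and 8.50 CPM in the 6 libraries, and Col24a1 between 0.161 and 1.32 CPM. In all, both YZ9 libraries were below both controls in 6 of the 9 tested fibrillar genes, where 24.5% of all genes tested showed this, and above in 0 (21.1% of all genes). The median log2 fold change was -0.78 over the 9 genes and 0.00 over all genes tested. None of the 9 was called by edgeR, and 3 had an unadjusted p under 0.05, all with lower levels (6.93% of all genes).

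The main type IV genes of the basement membrane overlapped the controls with YZ9. Col4a1 and Col4a2 encode the chains of the network found in nearly all basement membranes. Col4a1 was at 232.5 and 172.5 CPM in controls and at 241 and 109.0 CPM with YZ9, and Col4a2 at 135.9 and 92.8 CPM in controls and 183 and 69.6 CPM with YZ9. For both genes YZ9 replicate 1 was above the controls and YZ9 replicate 2 below them, so the groups overlapped. The log2 fold changes were -0.21 (SE 0.43) for Col4a1 and 0.14 (SE 0.52) for Col4a2 in edgeR, and both signs turned under some alternatives. Col4a1 turned to 0.18 with sex as a covariate, 0.27 without YZ9 replicate 2 and 0.02 without control replicate 1, and Col4a2 turned to -0.71 without YZ9 replicate 1 and -0.11 without control replicate 2. Col4a5 (39.4 and 33.2 CPM in controls, 26.7 and 32.6 with YZ9) and Col4a6 (8.54 and 9.90 CPM in controls, 7.61 and 8.40 with YZ9), X-linked chains of a second network, lay slightly below both controls with YZ9. Of the 6 type IV genes, 2 had both YZ9 libraries below both controls (24.5% of all genes tested) and 0 above (21.1%). None had an unadjusted p under 0.05 (6.93% of all genes were lower and 4.34% higher), and the median log2 fold change was -0.21. The difference between the medians of the classes was not tested.

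The sum of fibrillar CPM over the sum of type IV CPM put the classes against each other within a library, where scaling cancels. It was 4.77 and 5.05 in controls, 2.19 and 1.91 with YZ9, and 4.25 and 14.9 with PD. Both YZ9 libraries were therefore below both controls, and on the log2 scale the YZ9 mean was 1.26 units under the control mean (log2 difference -1.26). Counted per kilobase the ratio was 5.13 and 5.44 in controls and 2.29 and 1.96 with YZ9, and without Col1a1, the most abundant fibrillar gene, it was 2.698 and 3.21 in controls and 1.08 and 1.37 with YZ9. The 2 YZ9 libraries differed from each other in the total of collagen message, 1739 and 795 CPM, but not in this balance. The high value with PD was that of replicate 2, and without it the log2 difference from control turned from 0.70 to -0.21. A p-value was not computed for a sum over chosen genes.

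**Figure D2:**
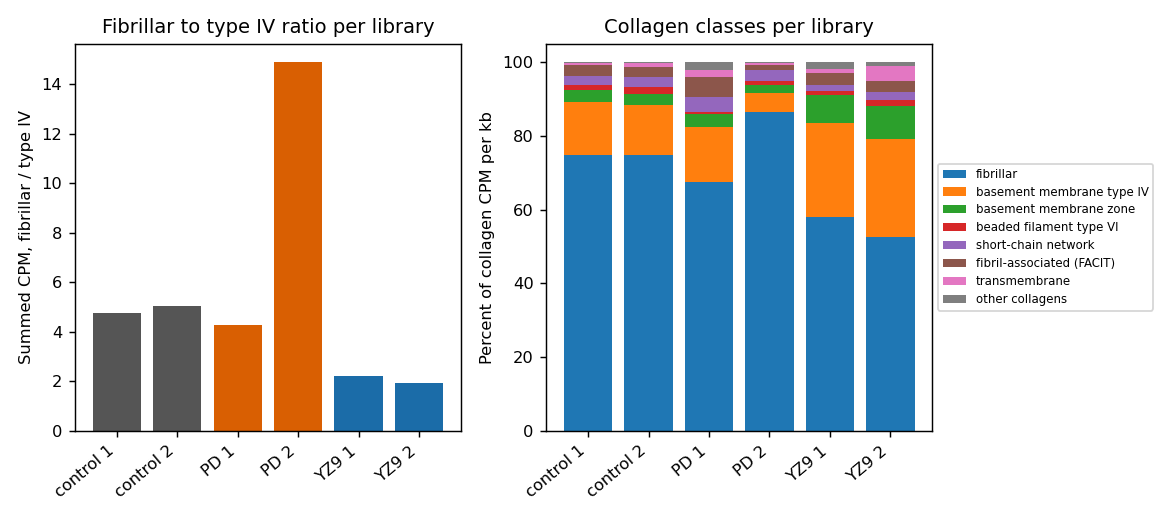
Left, summed CPM of fibrillar genes divided by summed CPM of type IV genes in each library. Right, percent of all collagen CPM per kb held by each collagen class in each library: the type IV share was 25.4% and 26.8% in the YZ9 libraries against 14.6% and 13.8% in controls, and 14.9% and 5.30% with PD.

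Among the other classes, Col8a1 stood out with YZ9. It encodes a short-chain collagen that forms nets beneath endothelia and in vessel walls (chr16:57624258-57754737, minus strand, GRCm38). Its level was 49.2 and 43.2 CPM in controls, 44.7 and 46.1 CPM with PD, and 18.2 and 9.41 CPM with YZ9. Control and PD libraries intermixed within a narrow range, and both YZ9 libraries were lower. The fold against control was 3.35 (log2 fold change -1.74, SE 0.32, edgeR adjusted p = 0.181, DESeq2 adjusted p = 0.000129, and 0.000116 in the authors' deposited table). Its partner chain Col8a2 stood at 3.64 and 5.38 CPM in controls and 3.67 and 4.05 CPM with YZ9, and PD replicate 2 reached 16.1 CPM.

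Type VI collagen, a filament around cells made from 3 different chains, was low but had the same direction in all tested chains with YZ9. Col6a1 was at 17.5 CPM in both controls, 5.38 and 10.0 CPM with PD, and 8.87 and 5.19 CPM with YZ9. Both inhibitor groups were below the controls and overlapped each other (log2 fold change -1.32, SE 0.40, edgeR adjusted p = 0.326 with YZ9; -1.19, SE 0.40, adjusted p = 0.339 with PD). Col6a2 was at 4.35 and 3.84 CPM in controls, 0.423 and 2.38 CPM with PD and 1.57 and 1.32 CPM with YZ9. Col6a3, the longest of these chains, was at 13.7 and 9.30 CPM in controls and 3.81 and 4.05 CPM with YZ9, while the PD libraries were at 4.15 and 18.7 CPM. All 4 tested type VI genes had both YZ9 libraries below both controls, as did 24.5% of all genes tested. The authors' deposited table called Col6a1 (adjusted p = 0.0169) and Col6a3 (adjusted p = 0.00574) lower, as it did 2.66% of its genes with an adjusted p.

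Col18a1, a collagen of the basement membrane zone and the source of the fragment endostatin, had a positive log2 fold change with YZ9 but did not pass the test. It was at 68.4 and 50.7 CPM in controls, 41.0 and 52.1 CPM with PD and 114.6 and 60.4 CPM with YZ9, and the YZ9 libraries overlapped the controls (log2 fold change 0.55, SE 0.33, edgeR adjusted p = 0.572). Col12a1, a coat of type I fibrils, was at 96.6 and 76.1 CPM in controls and 74.1 and 29.3 CPM with YZ9 (log2 fold change -0.74, edgeR adjusted p = 0.589). Col9a1, a coat of cartilage fibrils, was at 8.62 and 8.24 CPM in controls, 16.4 and 3.42 CPM with PD and 3.36 and 1.99 CPM with YZ9 (adjusted p = 0.451 with YZ9 in edgeR, 0.0114 in the authors' deposited table). Col16a1 was at 1.27 and 0.979 CPM in controls and 0.493 and 0.371 CPM with YZ9, and membrane-bound Col23a1 between 12.1 and 28.2 CPM in the 6 libraries, with groups overlapping. Col15a1, a relative of Col18a1, had 37 counts in the control libraries and 2 in the YZ9 libraries, a ratio of 18.1 with an exact 95% binomial interval of 4.66 to 155 that covers counting error only. It passed the filter on low counts through the controls alone, so it could only come out lower. It is nevertheless counted among the collagens lower with YZ9 at an unadjusted p under 0.05. The counts of collagens with both libraries of an inhibitor below both controls also include it.

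Over all 36 tested collagens, both YZ9 libraries lay below both controls in 17 and above in 3, against 24.5% and 21.1% of all genes. The median log2 fold change was -0.60, and 27 of 36 were negative. Scaling by total counts alone moved the median of all genes by 0.12 for YZ9 against control and gave -0.48 for the collagens. The collagen median was -1.11 without YZ9 replicate 1, -0.36 without YZ9 replicate 2 and -0.32 with no filter on low counts.

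**Figure D3:**
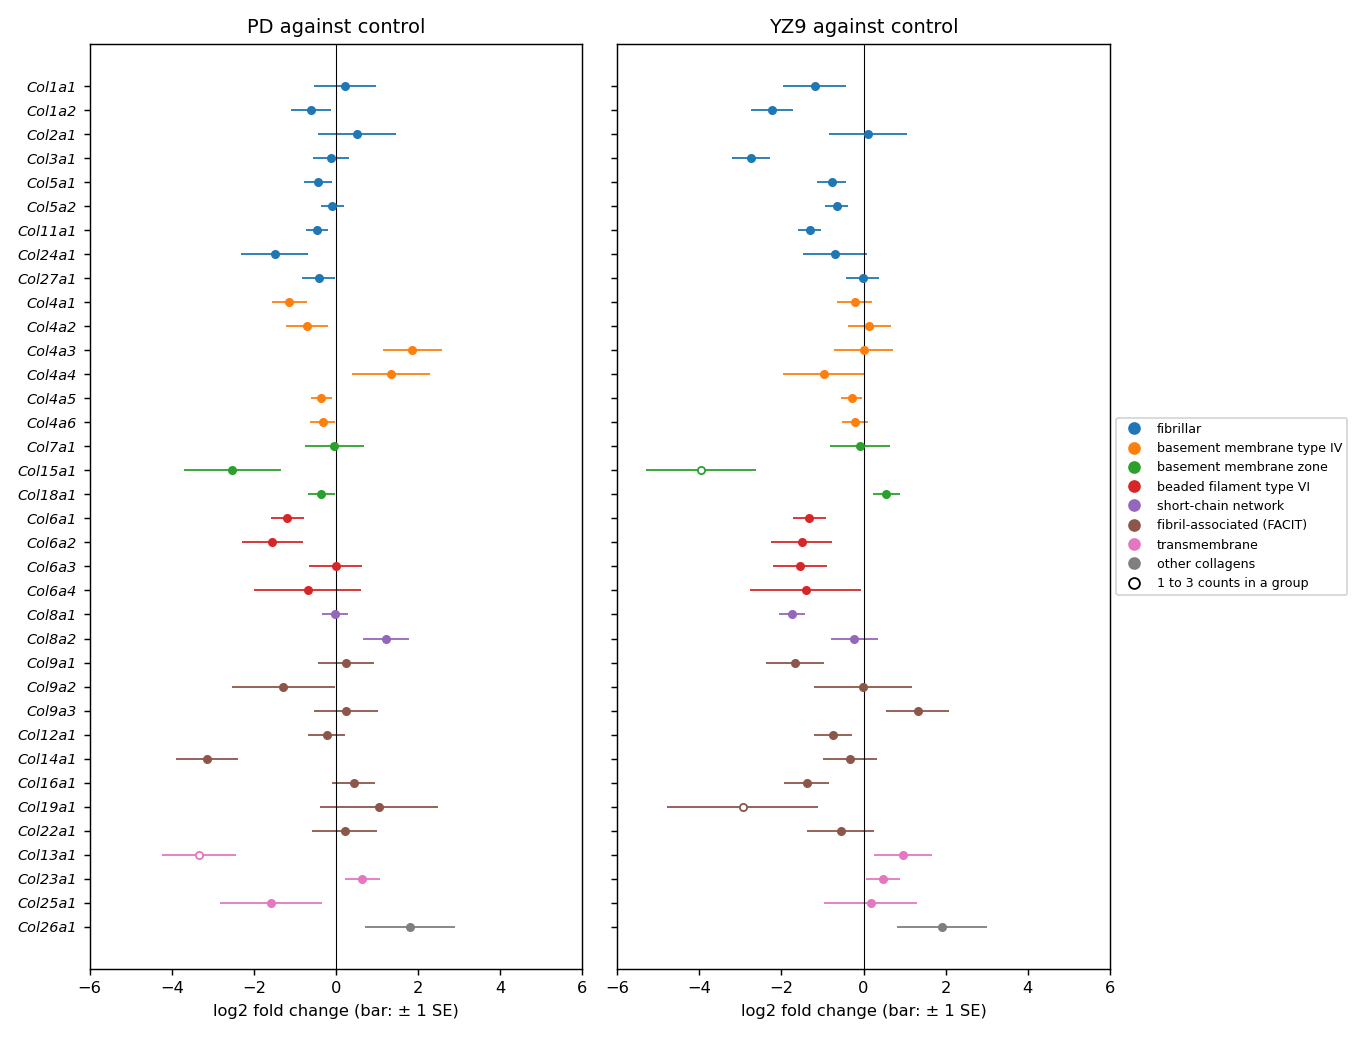
Log2 fold change of each of the 36 tested collagen genes against control for PD (left) and YZ9 (right), from edgeR, with bars of 1 standard error and colours for the class; open circles are genes with 1 to 3 counts in one of the groups. With YZ9, 8 of 9 fibrillar genes and all 4 type VI genes sit left of zero, and the type IV genes sit between -0.97 and 0.14; scaling by total counts alone puts Col27a1 right of zero at 0.11.

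PD was compared with control to ask what this second inhibitor did to the explants; the same control libraries serve both comparisons. Neither the fibrillar nor the type IV genes lay as a group on a single side of the controls. Of the 36 tested genes, edgeR called 0 (0.0964% of all genes tested were called), and 4 were lower and 1 higher at an unadjusted p under 0.05 (5.38% and 5.42% of all genes). DESeq2 called 1 lower (2.05% of all genes) and 0 higher (1.99%), and limma-trend 0. The authors' deposited table called 2 lower (1.86% of its genes with an adjusted p) and 0 higher (1.81%). Both PD libraries were below both controls in 10 collagens (19.5% of all genes) and above in 3 (19.2%), and the median log2 fold change was -0.28 against 0.00 over all genes.

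The type IV pair Col4a1 and Col4a2 stood lower with PD. Col4a1 was at 118.7 and 65.5 CPM with PD, both under the controls at 232.5 and 172.5 CPM (log2 fold change -1.14, SE 0.43, edgeR adjusted p = 0.401). The authors' deposited table called it lower (log2 fold change -1.13, adjusted p = 0.0307), as did edgeR without a filter on low counts (adjusted p = 0.0132), while DESeq2 on the filtered genes did not (0.154). Col4a2 was at 94.5 and 45.4 CPM with PD, and PD replicate 1 overlapped the controls at 135.9 and 92.8 CPM (edgeR log2 fold change -0.71 with an SE of 0.52, adjusted p = 0.741). The endoderm marker sum was lower in both PD libraries as well, with Thbd, Plat and Lamb1 its largest members in every library. Of the 15 tested endoderm markers, however, 9 had a positive and 6 a negative log2 fold change with PD. DESeq2 called 4 of them higher (1.99% of all genes) and 0 lower (2.05%). The part of endoderm cells was not tested. For Col4a1 and Col4a2 alike, PD replicate 2, the female library, was the lowest of the 6. With sex as a covariate their edgeR log2 fold changes were -0.70 and -0.19.

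Of the rarer type IV chains Col4a3 and Col4a4, which belong to the basement membranes of kidney and lung, Col4a3 stood above the controls with PD. Col4a3 was at 1.12 and 1.37 CPM against 0.187 and 0.489 CPM in controls, and 0.269 and 0.405 CPM with YZ9. The PD libraries were above the other 4 (log2 fold change 1.86, SE 0.71, edgeR adjusted p = 0.405), at 29 and 34 counts against 5 and 13 in controls. Reads of an overlapping gene on the other strand cannot be told from Col4a3 reads over 563 bases, since the library kit does not keep strand. Col4a4 was at 1.27 and 2.25 CPM with PD against 1.24 and 0.151 CPM in controls, just clear of the higher control. PD replicate 1 and control replicate 1 both had 33 counts of Col4a4, so only the scaling of the libraries set them apart. Col4a5 was at 23.1 and 33.5 CPM and Col4a6 at 5.84 and 8.86 CPM with PD, and both overlapped the controls.

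In the fibrillar genes the PD libraries differed from each other. Col1a1, Col1a2, Col3a1, Col5a1, Col5a2 and Col11a1 were all lower in PD replicate 1 than in PD replicate 2. For Col1a2 the gap was 83.3 against 281 CPM, and without replicate 2 Col1a2 passed in edgeR (log2 fold change -1.75, adjusted p = 0.0463), against -0.62 with both. Both PD libraries lay below both controls in 3 of 9 fibrillar genes (19.5% of all genes tested) and above in 0 (19.2%). The median log2 fold change of the 9 was -0.42, against 0.00 over all genes tested. The blood marker sum split the PD pair in the same way, at 526 and 7149 CPM beside fibrillar sums of 1040 and 2336 CPM. In controls it was 2687 and 7885 CPM beside 1992 and 1559 CPM, and with YZ9 92.5 and 1304 CPM beside 1005 and 421.5 CPM. In the control and YZ9 pairs the library with more blood marker CPM thus had the lower fibrillar sum. The part of blood cells was not tested.

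Col14a1 and Col13a1 had the smallest p-values with PD. Col14a1, a coat of type I fibrils (chr15:55307750-55520803, plus strand, GRCm38), was at 3.26 and 1.02 CPM in controls, 0.192 and 0.282 CPM with PD, and 1.93 and 1.48 CPM with YZ9. Both PD libraries were below the other 4, and YZ9 overlapped the controls. The PD difference was 8.88-fold (log2 fold change -3.15, SE 0.75, edgeR adjusted p = 0.2; DESeq2 adjusted p = 0.0163; 0.0468 in the authors' deposited table), and without control replicate 1 the edgeR log2 fold change was -2.08. Col13a1, a collagen anchored in the cell membrane, had 34 counts over both controls and 3 over both PD libraries, a ratio of 10.8 (exact 95% binomial interval 3.40 to 55.1), and 65 counts with YZ9, a ratio of 21.2 to PD (6.94 to 105).

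PD was also compared with YZ9 directly. The fibrillar genes Col3a1 and Col1a2 and the net-forming Col8a1 stood higher with PD than with YZ9. None of the 36 collagens passed in edgeR (0.122% of all genes did), 8 were higher with PD and 3 lower at an unadjusted p under 0.05 (7.09% and 4.4% of all genes), DESeq2 called 3 higher and 2 lower (2.68% and 1.2%), and limma-trend called 0. Both PD libraries were above both YZ9 libraries in 11 collagens (21.6% of all genes) and below in 5 (21.4%). Col3a1 was 6.13-fold higher with PD than with YZ9 (log2 difference 2.62, SE 0.46, edgeR adjusted p = 0.118). Its log2 difference lay between 2.05 and 3.49 as each library was left out. Col8a1 was 3.29-fold higher (log2 difference 1.72, SE 0.32, edgeR adjusted p = 0.14). Its edgeR adjusted p was 0.0465 with sex as a covariate and 0.127 with the replicate block, and limma-trend gave 0.0952. Col1a2 was 3.06-fold higher (log2 difference 1.61, edgeR adjusted p = 0.33), with a log2 difference of 2.24 without PD replicate 1 and 0.47 without PD replicate 2. Col14a1 was lower with PD (log2 difference -2.82, edgeR adjusted p = 0.271), and so was Col18a1 (log2 difference -0.91, adjusted p = 0.386). Scaling by total counts alone moved the median of all genes by -0.13 in this comparison.

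Several collagens share a chromosome segment, and their levels could be set side by side. Col4a1 and Col4a2 lie head to head on chromosome 8, and their RefSeq starts are 21 bases apart. The junction chr8:11312801-11312830 (GRCm38.p6, plus strand) is shown because both messages begin inside it, with capitals at the first base of Col4a2 on the left and of Col4a1, read from the other strand, on the right.
Col4a1 and Col4a2 starts: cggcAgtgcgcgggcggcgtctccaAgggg
Per kilobase, Col4a1 over Col4a2 gave 1.67 and 1.81 for control, 1.23 and 1.41 for PD, and 1.28 and 1.53 for YZ9. The ratio stayed above 1 in each library while the level of Col4a1 itself ranged from 65.5 to 241 CPM. It was lower in every PD and YZ9 library than in both controls. Exons of the pair overlap over 22 bases, which the unstranded counts cannot assign to a gene. Col4a6 and Col4a5, head to head on the X chromosome with 1308 bases between them, had a ratio of Col4a5 to Col4a6 between 3.41 and 4.68, with both extremes in the controls.

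Col3a1 and Col5a2 lie tail to tail on chromosome 1 with 24614 bases between them, and so have separate starts. Their ratio per kilobase was 1.62 and 1.85 in controls and 1.66 and 1.70 with PD, but 0.493 and 0.276 with YZ9. Col5a2 was thus the more abundant message of the pair with YZ9 and the less abundant one in the other 4 libraries. The 2 chains of type I collagen, on different chromosomes, had ratios of Col1a1 to Col1a2 of 2.80 and 1.82 for control, 4.05 and 4.12 for PD and 7.64 and 1.83 for YZ9. The high value belongs to YZ9 replicate 1, in which Col1a1 was at 508 CPM and Col1a2 at 60.0 CPM.

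**Figure D4:**
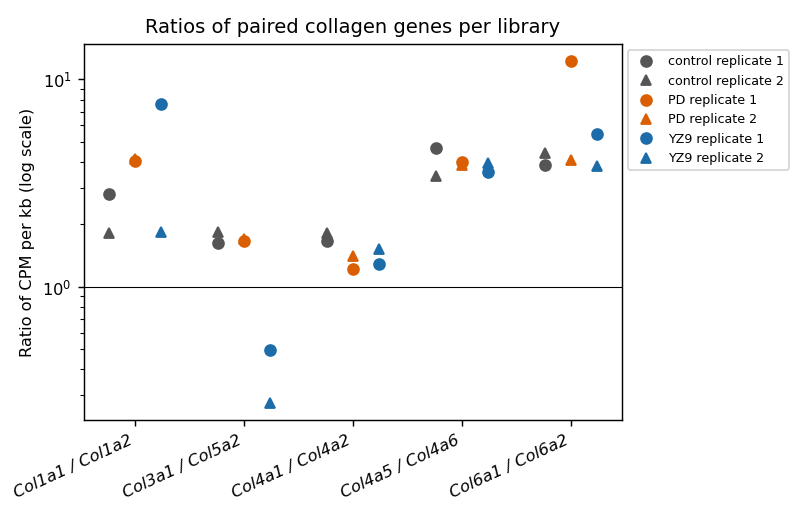
Ratio of CPM per kb within pairs of collagen genes in each library, on a log axis, with the line at equal levels. The ratio of Col3a1 to Col5a2 lies below the line in both YZ9 libraries (0.493 and 0.276), and that of Col4a1 to Col4a2 stays between 1.23 and 1.81 in all 6.

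The 250 bases before the RefSeq start are shown for the 3 collagens with the smallest p-values for YZ9 against control, to set their starts side by side (GRCm38.p6, each in the direction of its gene). Col3a1 is at chr1:45311288-45311537, plus strand, Col11a1 at chr3:114030290-114030539, plus strand, and Col8a1 at chr16:57754738-57754987, minus strand. Capitals mark matches, on either strand, to the letters TATAAA of the TATA box, to CCAAT, which reads ATTGG from the other strand, and to the GC box GGGCGG, which reads CCGCCC from the other strand. No match overlaps another in these windows.
Col3a1: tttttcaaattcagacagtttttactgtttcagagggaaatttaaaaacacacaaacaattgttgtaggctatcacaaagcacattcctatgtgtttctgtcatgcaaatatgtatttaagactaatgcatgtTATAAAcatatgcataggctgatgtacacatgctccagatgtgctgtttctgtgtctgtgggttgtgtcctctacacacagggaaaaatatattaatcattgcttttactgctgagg
Col11a1: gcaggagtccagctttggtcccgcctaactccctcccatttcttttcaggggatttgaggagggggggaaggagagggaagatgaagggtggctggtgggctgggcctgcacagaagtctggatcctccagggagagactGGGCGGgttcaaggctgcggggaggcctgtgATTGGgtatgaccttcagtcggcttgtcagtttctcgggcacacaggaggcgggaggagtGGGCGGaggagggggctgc
Col8a1: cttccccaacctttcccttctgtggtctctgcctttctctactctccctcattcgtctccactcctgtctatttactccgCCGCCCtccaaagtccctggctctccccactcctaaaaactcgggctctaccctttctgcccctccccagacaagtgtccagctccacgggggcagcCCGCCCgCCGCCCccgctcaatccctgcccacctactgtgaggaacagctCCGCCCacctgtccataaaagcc
The 3 windows have no motif in common to all: Col3a1 has a TATA box match only, Col11a1 a CCAAT match and 2 GC box matches, and Col8a1 4 GC box matches. RefSeq windows matched 35 of the 44 collagen genes, in 38 promoters. TATAAA was in 13.2% of these and in 12.4% of all 32851 mouse windows, CCAAT in 34.2% and 33.8%, and GGGCGG in 57.9% and 32.7%. These matches are letters in a window and were not tested as binding sites.

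Genes that modify, cross-link and bind collagens were taken from 6 lists. In the list of chain modification and folding, 0 of 24 genes passed edgeR in either comparison with control, where 0.00642% of all genes passed with YZ9 and 0.0964% with PD. At an unadjusted p under 0.05, 4 were lower and 1 higher with YZ9 (6.93% and 4.34% of all genes), and 1 was lower and 0 higher with PD (5.38% and 5.42%). P4ha3, a prolyl hydroxylase subunit that stabilises the helix, was at 8.40 and 9.45 CPM in controls, 7.23 and 3.99 CPM with PD and 2.73 and 2.19 CPM with YZ9 (log2 fold change -1.86, edgeR adjusted p = 0.22). Plod2, a lysyl hydroxylase that sets the type of cross-link, was at 480.5 and 532 CPM in controls, 563 and 552 CPM with PD and 367 and 261 CPM with YZ9 (log2 fold change -0.69, adjusted p = 0.278). P3h2, a prolyl 3-hydroxylase of type IV collagen, was at 17.1 and 11.4 CPM in controls, 2.11 and 3.26 CPM with PD and 7.48 and 5.40 CPM with YZ9, and was lowest with PD (log2 fold change -2.41, SE 0.39, edgeR adjusted p = 0.112, DESeq2 adjusted p = 3.84e-06). Sec23a, a coat protein of the vesicles that carry procollagen from the endoplasmic reticulum, was at 228 and 233 CPM in controls, 284 and 286 CPM with PD and 167.7 and 209.5 CPM with YZ9. Its groups did not overlap, with PD highest (log2 difference of PD from YZ9 0.60, edgeR adjusted p = 0.256, DESeq2 adjusted p = 0.0454). The collagen chaperone Serpinh1, named here after its values were seen, was at 2836 to 4198 CPM in the 6 libraries and overlapped between groups.

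Of the 13 tested genes for propeptide cleavage and cross-linking, 0 passed edgeR. At an unadjusted p under 0.05, 4 were lower with YZ9 (6.93% of all genes) and 2 with PD (5.38%), and 0 were higher in either comparison. Lox, the lysyl oxidase that cross-links fibrils, was at 9.63 and 6.17 CPM in controls, 6.57 and 23.9 CPM with PD and 0.717 and 0.573 CPM with YZ9. Its YZ9 libraries were below all others (log2 fold change -3.61, SE 0.69, edgeR adjusted p = 0.195, DESeq2 adjusted p = 1.51e-05). Pcolce, an enhancer of the protease that cuts fibrillar procollagen, was at 154.6 and 110.7 CPM in controls, 91.0 and 126.8 CPM with PD and 62.8 and 53.0 CPM with YZ9 (log2 fold change -1.20, SE 0.24, edgeR adjusted p = 0.211). Tll1, a protease that cuts procollagens, stood at 10.2 and 7.72 CPM in controls, 4.15 and 1.57 CPM with PD and 2.33 and 1.28 CPM with YZ9, and Adamts14, which removes the other end of procollagen, was at or below 0.862 CPM throughout.

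Among proteins that bind or organise fibrils, 12 of 12 tested genes had a negative log2 fold change with YZ9, and 10 had both libraries below both controls (24.5% of all genes). At an unadjusted p under 0.05, 7 were lower (6.93% of all genes) and 0 higher, the median was -0.88 against 0.00 over all genes, and edgeR called 0. Vcan, a large matrix proteoglycan, was at 488 and 457 CPM in controls, 236 and 216 CPM with PD and 233.5 and 189.5 CPM with YZ9. Both inhibitor groups were under the controls and overlapped each other (log2 fold change -1.16, SE 0.16, edgeR adjusted p = 0.127 with YZ9; -1.06, SE 0.16, adjusted p = 0.106 with PD). Bgn, a small proteoglycan bound to fibrils, was at 90.9 and 103.0 CPM in controls, 12.7 and 10.4 CPM with PD and 29.2 and 7.29 CPM with YZ9, both inhibitor groups again under the controls (log2 fold change -2.42, SE 0.59, edgeR adjusted p = 0.251 with YZ9). Fbn1, the main protein of microfibrils, stood at 178.6 and 159.7 CPM in controls, 62.4 and 79.2 CPM with PD and 107.5 and 77.1 CPM with YZ9. Postn, which links fibrils to other matrix proteins, was at 817 and 728 CPM in controls, 784 and 1555 CPM with PD and 158.5 and 332 CPM with YZ9, and was one of the pair with the smallest p between the inhibitors together with the proteoglycan Dcn (log2 difference of PD from YZ9 2.25 and 2.99, edgeR adjusted p = 0.146 and 0.215). With PD the list had no common direction, with 7 negative and 5 positive, and 4 were lower and 2 higher at an unadjusted p under 0.05 (5.38% and 5.42% of all genes).

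The 11 other basement membrane genes had a median log2 fold change of -0.06 with YZ9 and -0.29 with PD, and 0 passed edgeR. At an unadjusted p under 0.05, 1 was lower with YZ9 (6.93% of all genes) and 3 with PD (5.38%), and 0 were higher. Nid1, which joins the laminin and type IV networks, was lower in both inhibitor groups, at 416 and 347.5 CPM in controls, 151.8 and 186 CPM with PD and 239 and 155.7 CPM with YZ9 (log2 fold change -1.18 with PD, edgeR adjusted p = 0.164; -0.95 with YZ9, adjusted p = 0.254). Lamc1, a laminin chain, was at 262 and 199.9 CPM in controls and 137.8 and 170.5 CPM with PD (log2 fold change -0.58, adjusted p = 0.353). Agrn, the heparan sulfate proteoglycan agrin, was at 34.6 and 32.0 CPM in controls and above both at 66.7 and 43.6 CPM with YZ9 (log2 fold change 0.73, edgeR adjusted p = 0.478), while the PD libraries at 47.9 and 25.8 CPM lay on both sides of the controls. Lamb1, another laminin chain and also one of the endoderm markers, was at 339 and 238 CPM in controls, 166.7 and 209.7 CPM with PD and 330.2 and 225 CPM with YZ9 (log2 difference of PD from YZ9 -0.56, adjusted p = 0.474).

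Among collagen receptors and collagen-degrading enzymes, the smallest p-values with PD belonged to Itga1 and Mmp9. Itga1, the integrin chain that binds type IV collagen, was at 98.8 and 89.4 CPM in controls, 35.1 and 24.2 CPM with PD and 48.1 and 38.6 CPM with YZ9 (log2 fold change -1.66, SE 0.23, edgeR adjusted p = 0.106 with PD; -1.12, SE 0.23, adjusted p = 0.214 with YZ9). No group overlapped another for this gene. Mmp9, a protease of type IV collagen, was at 320.5 and 214 CPM in controls, 4.61 and 6.52 CPM with PD and 225 and 40.4 CPM with YZ9 (log2 fold change -5.58, SE 0.85, adjusted p = 0.106 with PD). Mmp2, with similar substrates, was at 183.5 and 138.6 CPM in controls, 61.2 and 62.9 CPM with PD and 99.6 and 62.4 CPM with YZ9 (log2 fold change -1.38, adjusted p = 0.152 with PD). Mmp16, a membrane-bound protease, was at 5.85 and 5.72 CPM in controls, 11.3 and 8.98 CPM with PD and 2.60 and 5.16 CPM with YZ9 (log2 difference of PD from YZ9 1.38, edgeR adjusted p = 0.297). The lysosomal protease Ctsl, named here after its values were seen, was above both controls with PD, at 315 and 216 CPM against 180 and 175 CPM (log2 fold change 0.58, edgeR adjusted p = 0.34).

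Both other receptors with the smallest p-values were scarce. Itga2, the integrin chain that pairs with beta 1 to bind fibrillar collagen, had 37 counts in the control libraries and 3 with PD, a ratio of 11.8 (exact 95% binomial interval 3.73 to 59.7, counting error only). Gp6, the collagen receptor of platelets, had 33 counts in the control libraries and 0 in every PD and YZ9 library, at least 10.5-fold lower with PD and 10.7-fold lower with YZ9 when 3 counts are allowed for both libraries of a group together. At an unadjusted p under 0.05, 3 of the 9 tested receptor genes were lower with PD and 4 with YZ9, and 0 were higher. Gp6 is among the lower genes in both comparisons. It passed the filter on low counts through the controls alone and could only come out lower, so it adds nothing to these counts. Of the 6 tested degrading enzymes 2 were lower and 1 higher with PD, and 1 was lower and 0 higher with YZ9. Over all genes these shares were 5.38% lower and 5.42% higher with PD and 6.93% and 4.34% with YZ9, and edgeR called 0 in either list.

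**Figure D5:**
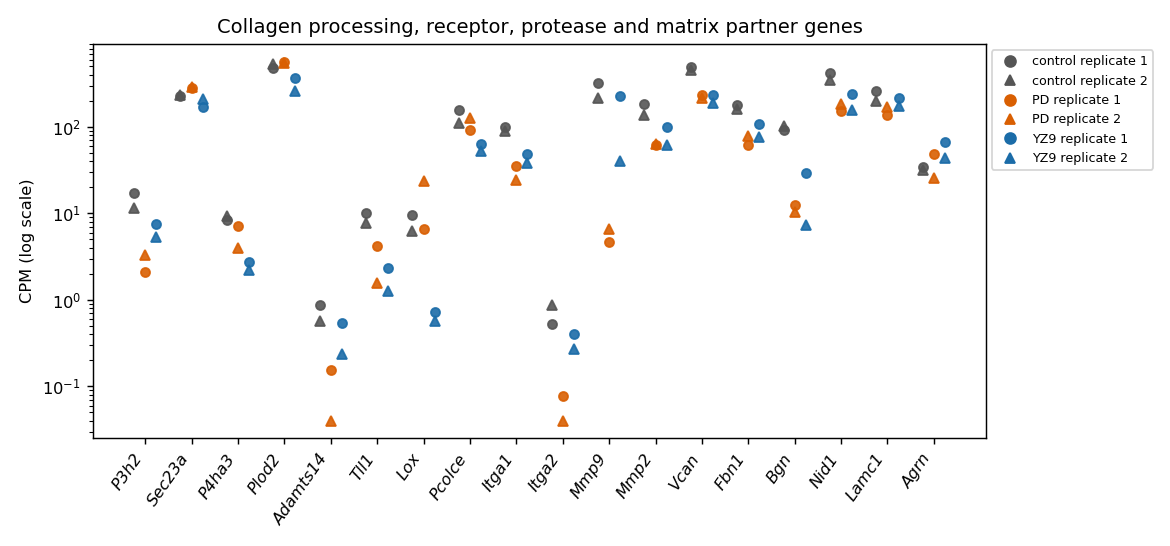
Level in CPM, on a log axis, of genes that process, bind or degrade collagens, 2 per list with the smallest p in either comparison with control and a count in every library. Lox, Plod2 and P4ha3 are lowest in both YZ9 libraries, and P3h2, Itga1 and Mmp9 are lowest in both PD libraries.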

How the data were processed

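Mouse mesoderm explants were profiled by polyadenylated RNA sequencing from low-input, template-switching libraries that do not keep strand, per the labels' protocols. The deposited tables hold the authors' raw counts per gene for the 6 libraries, with the log2 fold change, p-value and adjusted p-value of the authors' own comparisons. CASAVA 1.8.2, STAR 2.7.9a, DESeq2 1.40.1 and GRCm38 are named per the submitters' processing notes; the counting tool is not given in the sources used here. Some deposited columns were not used: signal values, which the authors made by dividing counts by a size factor per library, and a test score per gene from the authors' comparison.

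Genes were filtered with edgeR's filterByExpr (minimum count 10, minimum total 15), scaled by TMM and tested with edgeR 4.0.16 (quasi-likelihood, 3 groups, 3 residual degrees of freedom) in R 4.3.3, with Benjamini-Hochberg adjustment over the 15568 genes tested and a threshold of 0.05. CPM values use the TMM-scaled library sizes. Standard errors were obtained by dividing each log2 fold change by the root of its F statistic. Levels per kilobase use the GENCODE M21 transcript with the longest coding sequence; all annotated exons were tried as an alternative chosen after seeing the data. Alternatives were DESeq2 1.42.0, limma-trend 3.58.1 (prior count 3), other scalings and filters, the 4 libraries of a comparison, sex as a covariate, the replicate block, and each library left out. Total counts of 21253194 to 27810161 per library set the precision, and binomial intervals cover counting error only. The pipeline was tested on simulated data for PD against control. There edgeR recovered 4.48% of 2-fold, 53.7% of 4-fold and 65.2% of 8-fold changes, with 5 false calls. DESeq2 recovered 22.4%, 70.1% and 78.8%, with 40 false calls. A gene that did not pass edgeR is therefore not shown to be unchanged. Promoter windows come from RefSeq (GRCm38.p6).

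The collagen genes, the lists of other genes and the tests were chosen with earlier results of these data known. All tested fibrillar and type IV genes are described; of the other collagens, the 6 with the smallest p in each comparison and the 6 with the highest level per kilobase in controls; and of each other list without a call, the 2 with the smallest p in each comparison.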

Additional observations from a re-analysis of the deposited data

How the results depend on the processing

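The number of calls depended on the tool and the filter more than on scaling. For PD against control, edgeR called 15 genes in all, 712 with no filter, 124 with sex as a covariate and 0 to 33 as each library was left out, and DESeq2 called 629. For YZ9 against control these were 1, 556, 122, 0 to 9 and 519, and 5 with only the 4 libraries of the comparison. For PD against YZ9 they were 19, 601, 173, 0 to 35 and 534, with 9 under total counts only, 34 in limma-trend and 0 with the 4 libraries alone. Collagens called were 0 in each comparison as reported. They were 2 (Col14a1, Col4a1), 4 (Col11a1, Col1a2, Col3a1, Col8a1) and 6 (Col13a1, Col14a1, Col1a2, Col3a1, Col8a1, Col9a1) with no filter, and 1, 4 and 5 in DESeq2, for PD against control, YZ9 against control and PD against YZ9. Leaving out 1 library gave 0 to 1 in each; with the 4 libraries alone 1 collagen was called for YZ9 against control, and with sex as a covariate 1 for PD against YZ9. The cause of these differences was not tested.

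The log2 difference of the fibrillar to type IV ratio from control was -1.26 with YZ9, -1.37 with Col7a1, Col15a1 and Col18a1 counted beside type IV, and -1.36 to -1.16 as each library was left out. With PD it was 0.70, and reversed to -0.21 without PD replicate 2 (range to 1.60).

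Replicate numbers were not taken to pair the libraries: same-numbered deviations from group means correlated at -0.098 for control and PD, 0.166 for control and YZ9 and 0.353 for PD and YZ9. With the replicate block, edgeR called 1 gene for PD against control, 3 for YZ9 against control and 12 for PD against YZ9, and 0 collagens in each. Both inhibitor groups pair a male with a female library, and with 2 libraries a group 1 library can set a level, as for Col1a2 and Col1a1 with PD. Genes at a few counts, such as Col13a1 and Col15a1, are limited by depth.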
